A study of Mus musculus with 4 samples.

Results

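Interferon-stimulated genes are the genes that cells switch on after an interferon binds its receptor, and 35 of them were followed here through the cells of the mouse mammary gland. They were taken as the genes whose symbol in the deposited gene table equals 1 of 35 names, out of 27998 genes in all. The study set cells of Zeb1 MSKO mice beside cells of control mice to describe how their transcriptomes vary, and Zeb1 encodes a zinc-finger transcription factor. Its 4 single-cell libraries were made from FACS-sorted mammary gland cells of mice labelled C57BL/B6, with 1 control and 1 Zeb1 MSKO library at 8 weeks of age and 1 of each at 9 weeks. The labels do not expand MSKO or name the deleted part of Zeb1, so counts at the 3′ end of that gene do not check the genotype labels. The labels give neither the sort markers nor the number of animals. The p-values below for genotype and age therefore rest on the spread from library to library. Those that compare cell classes rest on the spread of the class differences over the libraries. Either spread may be technical, and age, preparation and capture cannot be told apart.

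Type I interferons bind the receptor made of Ifnar1 and Ifnar2, and interferon gamma binds Ifngr1 and Ifngr2. The receptors signal through the kinases Jak1 and Tyk2 (with Jak2 for interferon gamma) to transcription factors, among them Stat2 and Irf9, which sit in the complex that binds interferon-stimulated response elements (ISRE) in promoters. Interferon gamma also acts through a different element, the gamma-activated site (GAS). Many of the induced genes block virus entry, translation or release, others present antigen, and a few such as Usp18 shut the signal down again.

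The promoters of 5 members with an ISRE-type motif are shown because these genes run through the results below, and that of Irf1 because it carries the GAS-type motif. Each sequence is the 150 bases before the RefSeq transcription start in GRCm38.p6, 5′ to 3′ on the strand of the gene, with the motif in capitals. Isg15 lies at chr4:156200819-156200968 (minus strand), Ifit1 at chr19:34640739-34640888 (plus), Bst2 at chr8:71537473-71537622 (minus), Gbp3 at chr3:142559894-142560043 (plus), Oas1a at chr5:120907526-120907675 (minus) and Irf1 at chr11:53769864-53770013 (plus).
Isg15: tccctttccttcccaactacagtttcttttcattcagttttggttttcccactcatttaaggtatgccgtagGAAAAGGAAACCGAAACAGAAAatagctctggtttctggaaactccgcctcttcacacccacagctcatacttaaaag
Ifit1: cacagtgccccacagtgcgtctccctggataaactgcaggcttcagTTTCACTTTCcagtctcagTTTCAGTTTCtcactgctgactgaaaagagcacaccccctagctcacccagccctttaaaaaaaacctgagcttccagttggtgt
Bst2: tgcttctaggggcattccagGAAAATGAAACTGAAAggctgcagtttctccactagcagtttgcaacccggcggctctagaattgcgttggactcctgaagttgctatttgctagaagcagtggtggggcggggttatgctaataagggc
Gbp3: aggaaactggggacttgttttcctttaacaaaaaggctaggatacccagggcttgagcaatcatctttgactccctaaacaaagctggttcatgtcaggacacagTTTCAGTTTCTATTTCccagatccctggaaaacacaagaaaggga
Oas1a: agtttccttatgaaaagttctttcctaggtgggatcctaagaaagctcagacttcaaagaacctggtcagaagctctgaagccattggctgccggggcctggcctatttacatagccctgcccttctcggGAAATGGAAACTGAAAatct
Irf1: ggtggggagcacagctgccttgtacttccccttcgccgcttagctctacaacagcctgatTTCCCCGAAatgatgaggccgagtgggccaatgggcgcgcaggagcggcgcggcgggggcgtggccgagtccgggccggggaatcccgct
The ISRE-type motif searched was GAAA, any 2 bases and GAAA again, and the GAS-type motif TTCNNNGAA, on both strands and with overlapping matches allowed, from 250 bases before to 50 bases after the start. Promoters were held for 29 of the 35 members. The ISRE-type motif was present in 13 of the 29 (44.8%) against 3.99% of all 27025 genes with a promoter, and the GAS-type motif in 8 (27.6%) against 9.55%. The 13 are Bst2, Ddx58, Eif2ak2, Gbp2, Gbp3, Ifih1, Ifit1, Ifit3, Isg15, Oas1a, Rsad2, Stat2 and Trim30a, and the 8 are Bst2, Eif2ak2, Ifi202b, Ifi35, Ifit2, Irf1, Oas1a and Psmb8. Isg15 holds 3 overlapping ISRE-type matches that begin 78 to 66 bases before the start, and Ifit1 holds 2 separate ones at 104 and 85 bases. A match is a description of the letters, not a tested binding site.

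The libraries held 7627 to 9790 cell barcodes, 80853204 to 122122443 counts of unique molecular identifiers (UMIs) and a median of 6376 to 10529.5 UMIs per barcode, the lowest in the Zeb1 MSKO library at 8 weeks. Of 36194 distinct barcode sequences, 682 occurred in more than 1 library. Marker genes placed 11277 cells as basal-like, 11327 as luminal progenitor-like and 9229 as hormone-sensing luminal-like, the 3 epithelial classes (named progenitor-like and hormone-sensing below), and 960 as fibroblast-like, 711 as endothelial-like and 133 as leukocyte-like. Fibroblast-like and endothelial-like cells came almost wholly from 8 weeks, since at 9 weeks each library held 25 or 30 of the former and 7 or 8 of the latter. Ifi202b was near 0 in progenitor-like cells of the control library at 8 weeks and the Zeb1 MSKO library at 9 weeks and high in the other 2, although all 4 libraries carry the same strain label. Whether the libraries share 1 genetic background was not tested, which bears on every genotype comparison below. Hormone-sensing cells were the deepest, with a median of 14047 to 17185 UMIs in the 4 libraries against 7498 to 8333 in progenitor-like and 5499 to 8005 in basal-like cells. Levels are given as CPM, the UMIs of a gene per 1000000 UMIs of the class in that library, always in the order control at 8 weeks, Zeb1 MSKO at 8 weeks, control at 9 weeks, Zeb1 MSKO at 9 weeks.

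The summed level of the 35 members was lowest in basal-like and highest in endothelial-like cells. In basal-like cells the members summed to 621, 603, 707 and 869 CPM, in progenitor-like cells to 1051, 1032, 1519 and 1219 CPM, and in hormone-sensing cells to 1051, 833, 1269 and 880 CPM. Fibroblast-like cells held 1964, 3567, 2037 and 2706 CPM, endothelial-like cells 4661, 4590, 5925 and 5403 CPM, and leukocyte-like cells 2215, 1842, 2196 and 2757 CPM. The means over the 4 libraries were 700 ± 121 in basal-like, 1205 ± 225 in progenitor-like, 1008 ± 197 in hormone-sensing, 2252 ± 377 in leukocyte-like, 2568 ± 745 in fibroblast-like and 5145 ± 637 CPM in endothelial-like cells (SD, n = 4). Every endothelial-like value was above every value of the other 5 classes, and every progenitor-like value was above every basal-like value. Progenitor-like and hormone-sensing values overlapped, and so did hormone-sensing and basal-like values, and leukocyte-like and fibroblast-like values. Without the 3 antigen-processing genes the means were 599 ± 84.7 CPM in basal-like, 971 ± 208 in progenitor-like and 635 ± 82.8 in hormone-sensing cells (SD, n = 4). Hormone-sensing values (544 to 744 CPM) then lay below all progenitor-like values (828 to 1272 CPM). The Zeb1 MSKO library at 9 weeks had 617 CPM in hormone-sensing against 710 CPM in basal-like cells. Because these are sums over cells, fewer expressing cells and less RNA per cell cannot be told apart in them.

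**Figure D1:**
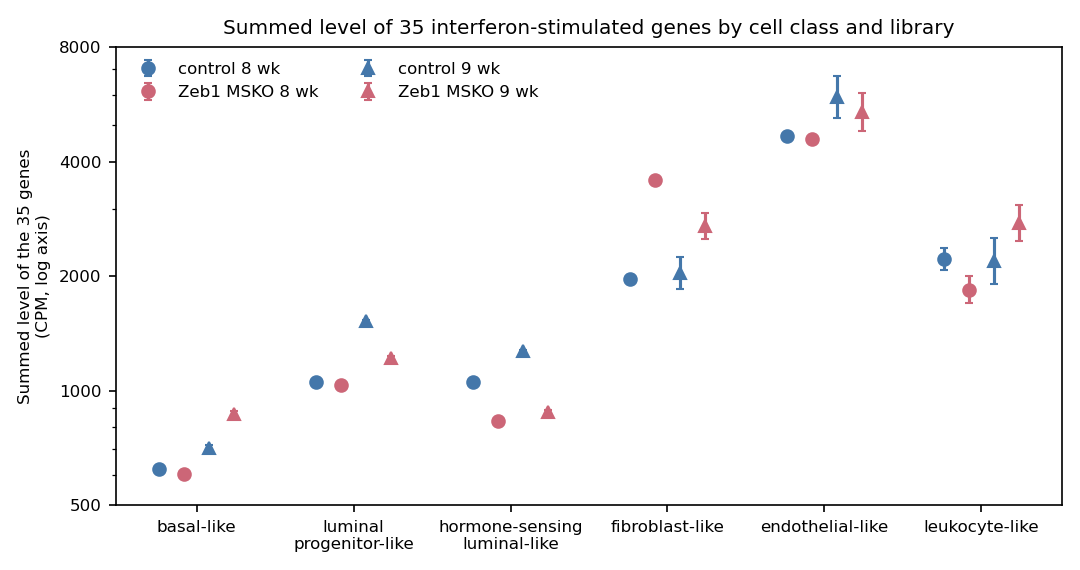
Summed level of the 35 interferon-stimulated genes (CPM, log axis) in 6 cell classes, with 1 point per library and bars for the Poisson 95% interval, which covers counting error only. Endothelial-like libraries lie between 4590 and 5925 CPM, above all others, and basal-like libraries between 603 and 869 CPM.

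The members were also compared one by one between the 3 epithelial classes, over 12 sums of counts (3 classes in 4 libraries) with the library as a block, by edgeR's quasi-likelihood test with Benjamini-Hochberg adjustment over all 13792 genes tested. Between progenitor-like and basal-like cells 25 of the 35 members passed an adjusted p of 0.05, where 58.0% of all genes did. Of these, 23 were higher in progenitor-like cells (background 30.2%) and 2 were lower (background 27.8%), and the median log2 difference was 1.03 over the members and 0.05 over all genes. Between progenitor-like and hormone-sensing cells 25 members passed (background 58.0%), 18 higher and 7 lower in progenitor-like cells (29.1% and 28.8% of all genes), with a median of 0.61 against 0.01. Between basal-like and hormone-sensing cells 24 passed (background 71.1%), 9 higher and 15 lower in basal-like cells (35.2% and 35.9%), with a median of -0.25 against -0.01. The shares of members that passed, 71.4%, 71.4% and 68.6% in the 3 comparisons, were thus not far from the background, while in the first the passing members were mostly higher in progenitor-like cells.

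**Figure D2:**
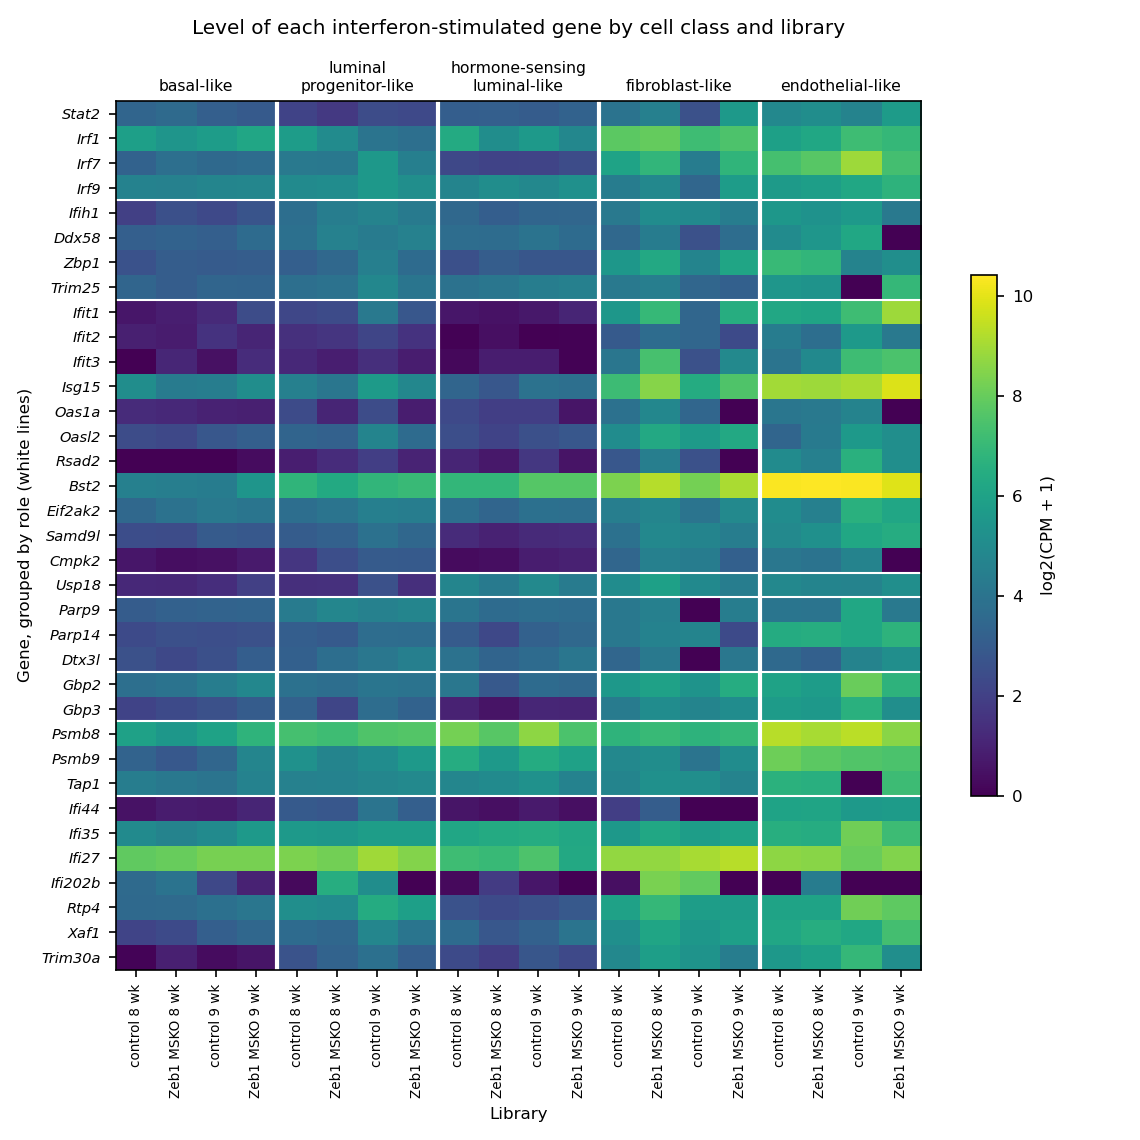
Level of each of the 35 genes as log2(CPM + 1), by colour, in 5 cell classes with 4 libraries each, ordered by role. Bst2, Psmb8 and Ifi27 are among the highest in most columns, Usp18 stands out in the hormone-sensing columns among the epithelial ones, and Ifi202b alternates between libraries.

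Transcription factors of the pathway were split between the classes. Stat2, a signal transducer that the type I response requires, measured 9.68, 11.3, 8.03 and 6.69 CPM in basal-like cells, 3.34, 2.36, 4.41 and 3.91 CPM in progenitor-like cells and 7.67, 7.91, 7.18 and 8.60 CPM in hormone-sensing cells. All 4 progenitor-like values lay below all values of the other 2 epithelial classes, with log2 differences of -1.32 ± 0.25 against basal-like (edgeR adjusted p = 0.000874; each ± on a log2 difference is a standard error) and -1.16 ± 0.24 against hormone-sensing cells (adjusted p = 0.00177). Irf7, the factor that amplifies type I interferon production, went the other way, at 8.73, 12.8, 10.9 and 12 CPM in basal-like, 17.8, 17.0, 46.5 and 21.7 CPM in progenitor-like and 3.79, 3.30, 3.35 and 4.41 CPM in hormone-sensing cells. Its 3 classes did not overlap, and it was higher in progenitor-like than in hormone-sensing cells by 2.68 ± 0.29 on the log2 scale (edgeR adjusted p = 1.64e-05). Irf9, the DNA-binding partner of Stat2, ranged only from 22.9 to 46.1 CPM over all 12 epithelial sums. It was higher in progenitor-like than in basal-like cells by 0.53 ± 0.15 (adjusted p = 0.0103), a call that ended without the control library at 9 weeks (edgeR adjusted p = 0.0821).

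Irf1, an early target of interferon gamma, measured 58.3, 42.8, 53.7 and 70.2 CPM in basal-like cells but 52.9, 31.7, 15.4 and 13.0 CPM in progenitor-like cells and 82.2, 33.3, 47.7 and 27.6 CPM in hormone-sensing cells. Its progenitor-like values were far apart, overlapped both other classes at 8 weeks and were low at 9 weeks. The log2 difference of progenitor-like from basal-like cells was -1.19 ± 0.33 (edgeR adjusted p = 0.00919), and that from hormone-sensing cells -0.83 ± 0.32 (adjusted p = 0.0447), which gave an adjusted p of 0.228 without the control library at 9 weeks. Dissociation-response genes, a list of 9 genes of the stress of tissue digestion, summed to 7759, 11518, 6658 and 8411 CPM in progenitor-like, 3391, 3880, 3640 and 4312 CPM in basal-like and 5397, 5074, 4127 and 4834 CPM in hormone-sensing cells, and their part in the Irf1 values was not tested.

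The 4 sensors and their helpers were all higher in progenitor-like than in basal-like cells. Ifih1, which encodes the double-stranded RNA sensor MDA5, measured 2.98, 4.80, 3.91 and 5.53 CPM in basal-like, 12.7, 20.6, 24.2 and 18.8 CPM in progenitor-like and 10.6, 7.73, 9.69 and 9.73 CPM in hormone-sensing cells, without overlap. Its log2 difference was 2.15 ± 0.21 from basal-like (edgeR adjusted p = 7.08e-06) and 0.96 ± 0.20 from hormone-sensing cells (adjusted p = 0.00162). Ddx58, which encodes the RNA sensor RIG-I, was higher by 1.12 ± 0.16 and 0.61 ± 0.16 in the same comparisons, and the second call ended without the Zeb1 MSKO library at 9 weeks (edgeR adjusted p = 0.0538). Zbp1, a sensor of left-handed nucleic acids that triggers cell death, was higher by 0.91 ± 0.22 and 1.03 ± 0.22. Trim25, the ubiquitin ligase that acts on RIG-I, was higher than in basal-like cells by 0.93 ± 0.19, while its difference from hormone-sensing cells was -0.13 ± 0.18 (edgeR adjusted p = 0.584). Basal-like cells were below hormone-sensing cells in 3 of the 4, namely Ifih1, Ddx58 and Trim25, of which Ddx58 did not pass without the control library at 9 weeks (edgeR adjusted p = 0.156).

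Among the 11 antiviral effectors, 6 were higher in progenitor-like than in basal-like cells (Ifit1, Oasl2, Rsad2, Bst2, Samd9l and Cmpk2) and none passed in the other direction. Bst2, which encodes the tetherin that holds budding virus at the cell surface, measured 22.1, 20.8, 20.0 and 42.2 CPM in basal-like, 113, 78.7, 115 and 133 CPM in progenitor-like and 120, 119, 202 and 205 CPM in hormone-sensing cells. Basal-like cells lay below both luminal classes without overlap, with a log2 difference of -2.67 ± 0.18 from hormone-sensing cells (edgeR adjusted p = 2.89e-07). Progenitor-like cells lay below hormone-sensing cells, with -0.55 ± 0.17 (adjusted p = 0.0169), a call that leaving out the Zeb1 MSKO library at 8 weeks ended (edgeR adjusted p = 0.0522).

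Ifit1, which binds viral RNA that lacks the host cap, measured 0.541, 0.843, 1.37 and 4.42 CPM in basal-like, 3.66, 4.16, 17.3 and 6.06 CPM in progenitor-like and 0.570, 0.413, 0.591 and 1.11 CPM in hormone-sensing cells. The control library at 9 weeks held by far the most in progenitor-like cells, and the progenitor-like excess was 2.23 ± 0.47 over basal-like (edgeR adjusted p = 0.00179) and 3.44 ± 0.49 over hormone-sensing cells (adjusted p = 1.37e-04). Cmpk2, a mitochondrial nucleotide kinase next to Rsad2 in the genome, measured 0.541, 0.292, 0.370 and 0.697 CPM in basal-like, 2.16, 4.71, 6.88 and 6.70 CPM in progenitor-like and 0.228, 0.295, 0.760 and 0.917 CPM in hormone-sensing cells. Its progenitor-like values lay above all others, by 3.43 ± 0.35 over basal-like (adjusted p = 1.12e-05) and 3.18 ± 0.33 over hormone-sensing cells (edgeR adjusted p = 1.16e-05).

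Rsad2, which encodes viperin, had 0 UMIs in 3 of the 4 basal-like sums and 6 UMIs in the Zeb1 MSKO library at 9 weeks, against 0.855, 1.52, 2.79 and 1.06 CPM in progenitor-like and 1.14, 0.590, 2.25 and 0.468 CPM in hormone-sensing cells. Both differences from basal-like cells passed (edgeR adjusted p = 0.00124 and 0.00229), and no fold is given because most basal-like sums were 0. Samd9l, a restriction factor of poxviruses and translation, was ordered progenitor-like above basal-like above hormone-sensing, with 7.24, 8.38, 13.8 and 10.1 CPM, then 4.47, 4.31, 6.98 and 6.27 CPM, then 1.43, 1.0, 1.38 and 1.47 CPM. The classes did not overlap, and the log2 differences were 0.85 ± 0.16 for the first step (adjusted p = 0.00109) and 1.99 ± 0.18 for the second (edgeR adjusted p = 2.37e-06).

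Isg15, a ubiquitin-like protein that is attached to other proteins and is secreted, measured 33.6, 19.5, 20.2 and 33.4 CPM in basal-like, 22.4, 15.9, 50.5 and 27.5 CPM in progenitor-like and 9.72, 6.08, 14.4 and 12.9 CPM in hormone-sensing cells. Basal-like and progenitor-like values overlapped (log2 difference 0.03 ± 0.26, edgeR adjusted p = 0.933), and both lay above the hormone-sensing values, by 1.35 ± 0.27 (adjusted p = 0.000844) and 1.38 ± 0.26 (adjusted p = 0.00103). Ifit2 was nearly undetected in hormone-sensing cells (0.0570, 0.354, 0.0282 and 0.0360 CPM) against 1.74, 2.01, 3.48 and 1.90 CPM in progenitor-like cells, a log2 difference of 4.64 ± 0.58 (edgeR adjusted p = 4.91e-05). A count of 3 UMIs would be 0.0855, 0.177, 0.0845 and 0.0539 CPM in hormone-sensing cells. All values there but that of the Zeb1 MSKO library at 8 weeks lay under it, so the size of the difference is uncertain. Oasl2, of the family of 2′-5′ oligoadenylate synthetases, was higher in progenitor-like cells by 1.25 ± 0.24 and 1.43 ± 0.24 than in basal-like and hormone-sensing cells. Eif2ak2, which encodes the kinase PKR, was higher in progenitor-like than in hormone-sensing cells by 0.47 ± 0.15 (edgeR adjusted p = 0.0179), and this call ended without any 1 of 3 libraries (all but the control at 8 weeks), with adjusted p of 0.0541 to 0.118. Oas1a and Ifit3 passed in no class comparison. Reads of Oas1a and Ifit3 may be shared with near-identical family members, so their levels are uncertain.

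**Figure D3:**
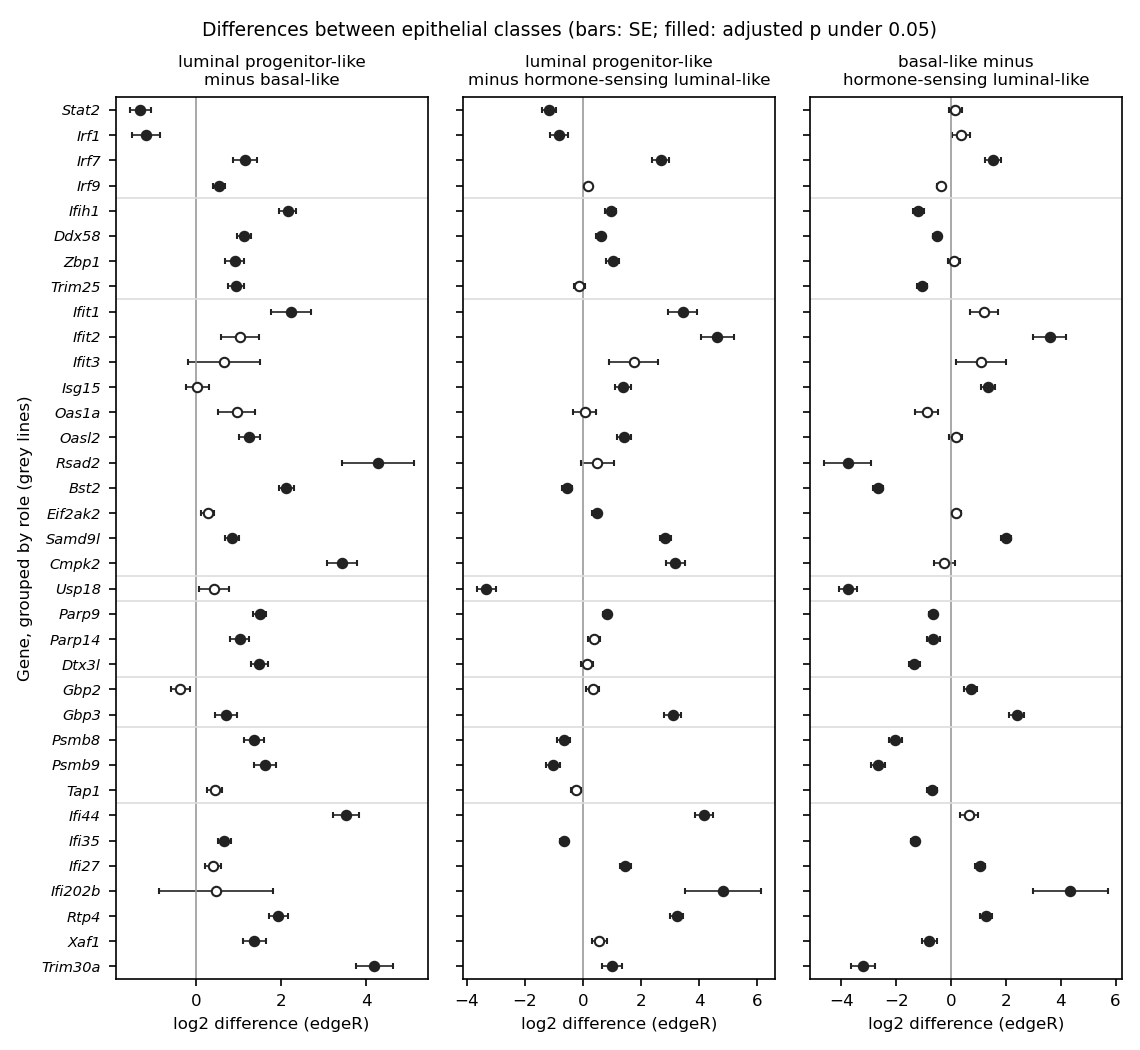
Log2 difference ± SE of each of the 35 genes between the epithelial classes (3 panels), from edgeR over 4 libraries, with filled points where the adjusted p is under 0.05. Most filled points of progenitor-like minus basal-like lie above 0, and Usp18 lies at -3.33 and -3.75 in the comparisons with hormone-sensing cells.

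Usp18, the protease that removes Isg15 from proteins and blocks the type I receptor, was highest in hormone-sensing cells within the epithelium. It measured 26.0, 18.9, 29.2 and 19.2 CPM in hormone-sensing cells and was low in the others, with progenitor-like values of 1.68, 1.73, 4.97 and 1.66 CPM and basal-like values of 1.29, 1.23, 1.59 and 2.97 CPM. The hormone-sensing values lay above all others, with log2 differences of -3.33 ± 0.32 for progenitor-like (edgeR adjusted p = 7.38e-06) and -3.75 ± 0.34 for basal-like cells (adjusted p = 2.19e-06). The gene (ENSMUSG00000030107) lies in mm10 on chromosome 6, bases 121245906 to 121270917, plus strand. With every cell thinned to 2000 UMIs, 4.89%, 3.62%, 5.24% and 4.45% of hormone-sensing cells had a Usp18 UMI, against 0.385%, 0.490%, 0.647% and 0.441% of progenitor-like and 0.113%, 0.261%, 0.239% and 0.451% of basal-like cells. Unthinned, the hormone-sensing shares were 24.8%, 21.0%, 31.9% and 25.9%. At 8 weeks Usp18 measured 32.7 and 59.4 CPM in fibroblast-like and 27.9 and 24.9 CPM in endothelial-like cells, control first. The libraries of 9 weeks held too few of these cells to place it.

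Genes of ADP-ribosylation, Parp9 and its partner Dtx3l and the related Parp14, were all higher in progenitor-like than in basal-like cells, by 1.49 ± 0.15, 1.48 ± 0.20 and 1.03 ± 0.22 on the log2 scale (edgeR adjusted p = 7.14e-06, 1.01e-04 and 0.00224). Parp9 measured 7.24, 8.53, 8.88 and 9.20 CPM in basal-like, 19.2, 26.5, 22.7 and 26.1 CPM in progenitor-like and 15.6, 11.6, 12.6 and 12 CPM in hormone-sensing cells, without overlap. Parp9 (plus strand) and Dtx3l (minus strand) overlap in the genome only where both genes start. How reads in that stretch were counted was not tested. All 3 were lower in basal-like than in hormone-sensing cells, of which Parp14 (-0.64 ± 0.22) did not pass without any 1 of 3 libraries (all but the Zeb1 MSKO library at 8 weeks, edgeR adjusted p = 0.0897 to 0.206).

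Of the 2 guanylate-binding proteins, GTPases that attack the vacuoles of intracellular pathogens, Gbp3 was low in hormone-sensing cells. It measured 0.998, 0.472, 1.18 and 1.10 CPM there against 8.53, 3.53, 12.4 and 8.74 CPM in progenitor-like and 3.32, 4.02, 5.02 and 7.30 CPM in basal-like cells. The hormone-sensing values lay below all others, and the log2 excess was 3.09 ± 0.28 for progenitor-like (edgeR adjusted p = 4.78e-06) and 2.39 ± 0.29 for basal-like cells (adjusted p = 2.01e-05). Its excess in progenitor-like over basal-like cells (0.70 ± 0.26, adjusted p = 0.0364) did not pass without any 1 of 3 libraries (all but the Zeb1 MSKO library at 8 weeks), with edgeR adjusted p of 0.0661 to 0.273. Gbp2 measured 16.8, 6.43, 11.5 and 10.6 CPM in hormone-sensing, 14.0, 12.5, 15.7 and 14.6 CPM in progenitor-like and 13.1, 14.5, 20.5 and 27.3 CPM in basal-like cells, with overlap. It was higher in basal-like than in hormone-sensing cells by 0.72 ± 0.23 (edgeR adjusted p = 0.0148), and did not pass without either library at 9 weeks (adjusted p = 0.0555 and 0.0736).

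The 3 antigen-processing genes summed to 90.1, 68.8, 88.4 and 159 CPM in basal-like, 224, 193, 247 and 273 CPM in progenitor-like and 415, 289, 524 and 263 CPM in hormone-sensing cells. Hormone-sensing cells held the most in every library but the Zeb1 MSKO one at 9 weeks. Psmb8, a catalytic subunit of the immunoproteasome, measured 60.8, 45.6, 63.3 and 109 CPM in basal-like, 163, 145, 187 and 196 CPM in progenitor-like and 302, 209, 403 and 177 CPM in hormone-sensing cells. Basal-like cells lay below the other 2 classes, with a log2 difference of -2.02 ± 0.25 from hormone-sensing cells (edgeR adjusted p = 2.31e-05), and the 2 luminal classes overlapped. The luminal difference of -0.67 ± 0.24 (adjusted p = 0.031) did not pass without any 1 of 3 libraries (all but the Zeb1 MSKO library at 9 weeks), with edgeR adjusted p of 0.0646 to 0.134. Psmb9, the second inducible subunit, measured 8.87, 6.32, 9.88 and 25.8 CPM in basal-like, 37.4, 24.9, 32.8 and 47.8 CPM in progenitor-like and 85.7, 49.3, 83.3 and 61.5 CPM in hormone-sensing cells. All hormone-sensing values were the highest, and the log2 differences were -1.04 ± 0.25 for progenitor-like (adjusted p = 0.00416) and -2.66 ± 0.27 for basal-like cells (edgeR adjusted p = 5.43e-06). Tap1, the peptide transporter that overlaps Psmb9 in the genome, was lower in basal-like than in hormone-sensing cells, with a log2 difference of -0.68 ± 0.18 (edgeR adjusted p = 0.00489), and did not pass without the control library at 9 weeks (adjusted p = 0.0517).

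Of the other 7 members, Ifi44, Rtp4, Xaf1, Ifi35 and Trim30a were higher in progenitor-like than in basal-like cells. Ifi44, a cytoplasmic protein of unclear function, measured 0.406, 0.713, 0.687 and 1.12 CPM in basal-like, 6.71, 6.17, 15.2 and 7.82 CPM in progenitor-like and 0.513, 0.354, 0.676 and 0.360 CPM in hormone-sensing cells. Progenitor-like cells stood alone, by 3.52 ± 0.30 over basal-like (edgeR adjusted p = 2.62e-06) and 4.18 ± 0.30 over hormone-sensing cells (adjusted p = 8.25e-07). Rtp4, a chaperone of G protein-coupled receptors, measured 11.0, 11.3, 13.5 and 16.3 CPM in basal-like, 34.5, 31.3, 83.6 and 57.6 CPM in progenitor-like and 5.19, 4.13, 4.87 and 6.56 CPM in hormone-sensing cells. The 3 classes did not overlap, and the progenitor-like excess was 1.93 ± 0.21 and 3.23 ± 0.23 over the other 2 (edgeR adjusted p = 1.97e-05 and 6.41e-07).

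Trim30a, a ubiquitin ligase of a family with close paralogs, measured 0.0677, 0.875, 0.264 and 0.511 CPM in basal-like, 5.32, 9.01, 13.4 and 7.79 CPM in progenitor-like and 4.11, 2.71, 5.97 and 3.90 CPM in hormone-sensing cells. Its log2 excess over basal-like cells was 4.19 ± 0.43 in progenitor-like cells (edgeR adjusted p = 1.14e-05) and the basal-like difference from hormone-sensing cells was -3.19 ± 0.44 (adjusted p = 5.9e-05). Its luminal difference (0.99 ± 0.34, adjusted p = 0.0264) did not pass without either library at 9 weeks (edgeR adjusted p = 0.0848 and 0.0770). Ifi35, which binds Nmi, was highest in hormone-sensing cells at 71.7, 81.7, 87.5 and 75.9 CPM, against 49.2, 45.3, 55.5 and 55.5 CPM in progenitor-like and 30.7, 24.5, 30.7 and 48.6 CPM in basal-like cells. Ifi27, a mitochondrial protein, was higher in both other classes than in hormone-sensing cells, by 1.45 ± 0.19 in progenitor-like and 1.06 ± 0.19 in basal-like cells (edgeR adjusted p = 6.34e-05 and 3.8e-04). Xaf1, a pro-apoptotic factor, was higher in progenitor-like than in basal-like cells by 1.36 ± 0.27 (edgeR adjusted p = 0.00142). Its deficit in basal-like against hormone-sensing cells (-0.80 ± 0.27, adjusted p = 0.0225) did not pass without either library at 8 weeks (edgeR adjusted p = 0.144 and 0.0556).

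Markers of other cells were low in the epithelial classes but not absent. In progenitor-like cells the 8 fibroblast markers summed to 28.7, 83.5, 4.41 and 4.51 CPM, the 8 endothelial markers to 9.27, 12, 2.99 and 3.63 CPM, and the leukocyte markers to 25.9, 11.7, 8.21 and 5.99 CPM. The same fibroblast markers summed to 33777, 33500, 38015 and 32426 CPM in fibroblast-like cells, and the endothelial markers to 4685, 4599, 8199 and 8403 CPM in endothelial-like cells. In basal-like cells the fibroblast markers reached 155, 233, 228 and 180 CPM and the endothelial markers 6.77, 15.6, 4.49 and 4.83 CPM. The part of such RNA in the low effector values was not tested.

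Genotype was tested within each epithelial class, with n = 2 libraries each. None of the members passed in basal-like (34 tested, without Rsad2), progenitor-like (35 tested) or hormone-sensing cells (34 tested, without Ifit2), and neither did any other gene (percent of genes called 0.0 in each class, edgeR quasi-likelihood test). At an unadjusted p under 0.05, 1, 1 and 4 members were found in the 3 classes, against 58 of 12889, 179 of 12797 and 451 of 13099 genes, and DESeq2 called 0 members and 2, 7 and 29 genes. The median log2 change (Zeb1 MSKO over control) was 0.16 over the members in basal-like, -0.33 in progenitor-like and -0.17 in hormone-sensing cells, against 0.03, -0.01 and 0.02 over all genes. In progenitor-like cells 14 members were lower in the Zeb1 MSKO library at both ages and 4 were higher at both, where 16.9% and 25.6% of all genes were. In basal-like cells 14 were higher and 4 lower at both ages (21.4% and 13.6% of all genes), and in hormone-sensing cells 4 were higher and 15 lower (22.2% and 30.0%).

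Oas1a, an oligoadenylate synthetase that activates RNase L, had the widest gap between genotypes in progenitor-like cells among members that averaged 2 CPM or more and differed alike at 8 and 9 weeks. It measured 4.17 and 4.41 CPM in the control libraries (156 and 109 UMIs) and 1.11 and 0.775 CPM in the Zeb1 MSKO libraries (16 and 22 UMIs), or 4.29 ± 0.169 against 0.942 ± 0.236 CPM (SD, n = 2 each, edgeR). The genotypes did not overlap, with a log2 change of -2.25 ± 0.45, yet the adjusted p was 1 (unadjusted p = 0.00183, edgeR). In hormone-sensing cells Oas1a measured 3.91, 2.83, 2.87 and 0.522 CPM, also lower in the Zeb1 MSKO library at each age, with a log2 change of -1.04 ± 0.81, and in basal-like cells 1.42, 1.30, 1.0 and 0.883 CPM. With no filter on low counts Oas1a passed in progenitor-like cells (log2 change -2.27, edgeR adjusted p = 0.0161), where 85 of 18360 genes did. The gene (ENSMUSG00000052776) lies in mm10 on chromosome 5, bases 120896256 to 120907521, minus strand, in a cluster of near-identical Oas1 copies, so the split of its reads is uncertain.

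Next in size in progenitor-like cells were Oasl2 (log2 change -0.82 ± 0.49), Gbp3 (-0.79 ± 0.48), Isg15 (-0.78 ± 0.46), Irf7 (-0.77 ± 0.46) and Irf1 (-0.69 ± 0.63), each with an edgeR adjusted p of 1. For Isg15, Oasl2 and Irf7 the control at 9 weeks was the high library: Oasl2 measured 9.33 and 8.38 CPM at 8 weeks but 25.2 and 11.6 CPM at 9 weeks. In hormone-sensing cells Irf1 (-1.05 ± 0.30), Psmb8 (-0.83 ± 0.25), Gbp2 (-0.67 ± 0.35), Ifi27 (-0.62 ± 0.31) and Psmb9 (-0.56 ± 0.22) were lower in the Zeb1 MSKO library at both ages, with adjusted p of 1 (edgeR). Basal-like cells gave 0.55 ± 0.36 for Ifih1, 0.39 ± 0.42 for Gbp3, 0.31 ± 0.32 for Ddx58, 0.31 ± 0.31 for Irf7, 0.27 ± 0.40 for Gbp2 and 0.27 ± 0.54 for Xaf1. Ifit3, with 0, 1.20, 0.370 and 1.53 CPM in basal-like cells (0, 37, 7 and 33 UMIs), gave 2.72 ± 0.99 (edgeR unadjusted p = 0.0282, adjusted p = 1). Stat2 had log2 changes of 0.00 ± 0.39, -0.33 ± 0.44 and 0.20 ± 0.24 in basal-like, progenitor-like and hormone-sensing cells. A test of whether the genotype change differed between the classes called none of the 35 members (0.0% of 14553 genes), with 5 members and 570 genes at an unadjusted p under 0.05 (edgeR). Without the Zeb1 MSKO library at 9 weeks that test called 80 genes and without the one at 8 weeks 9 genes, with 0 members in each.

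**Figure D4:**
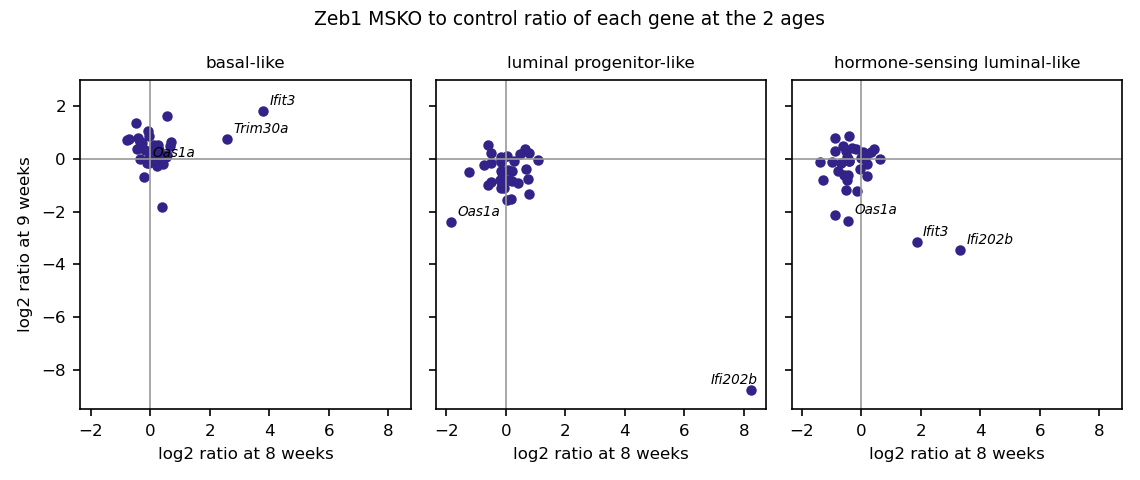
Log2 ratio of Zeb1 MSKO to control for each tested member at 8 weeks (x axis) and 9 weeks (y axis) in the 3 epithelial classes, with a prior count of 2. Oas1a is low at both ages in progenitor-like cells, and Ifi202b lies at 8.25 at 8 weeks and -8.79 at 9 weeks.

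Markers of other cells differed between the same libraries. In progenitor-like cells the 10 basal markers summed to 117, 469, 180 and 211 CPM, highest in the Zeb1 MSKO library at 8 weeks, and the dissociation-response genes were highest there too. In hormone-sensing cells the basal markers summed to 82.5, 405, 145 and 139 CPM. In basal-like cells, the class they define, the same markers summed to 23168, 17137, 26473 and 25012 CPM, lowest in the Zeb1 MSKO library at 8 weeks. The part of these marker differences in the genotype values was not tested.

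Ifi202b, a DNA-binding member of the Ifi200 family, known as a lupus susceptibility gene whose expression differs between inbred mouse strains, was high in 1 library of each genotype and of each age. In progenitor-like cells its UMIs numbered 8, 1275, 830 and 0, that is 0.214, 88.3, 33.6 and 0 CPM. The UMIs of fibroblast-like cells numbered 1, 1195, 48 and 0 (0.355, 326, 240 and 0 CPM), and those of hormone-sensing cells 7, 42, 20 and 0. The Zeb1 MSKO library was thus the high one at 8 weeks and the control library at 9 weeks, in all 3 classes.

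In progenitor-like cells the Zeb1 MSKO level at 8 weeks was 413-fold that of the control (exact 95% interval 209 to 959, counting error only). At 9 weeks the control level was 317-fold that of a floor of 3 UMIs in the Zeb1 MSKO library. The lower end of the exact 95% interval of that fold was 258 (counting error only). The genotype test, which averages over the ages, gave 1.31 ± 2.30 (edgeR adjusted p = 1). The fibroblast-like fold at 8 weeks was 917 (interval 164 to 36246, on 1 control UMI). The control at 9 weeks was 19.4-fold a floor of 3 UMIs (lower end of the interval 15.2). Basal-like UMIs numbered 166, 456, 73 and 22 (11.2, 14.8, 3.86 and 1.02 CPM), so that all 4 libraries had the transcript and the gaps were smaller, 1.32-fold at 8 weeks (interval 1.10 to 1.58) and 3.77-fold at 9 weeks (interval 2.32 to 6.38).

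After thinning to 2000 UMIs per cell, 0%, 13.4%, 6.20% and 0% of progenitor-like cells and 0%, 36.6%, 16% and 0% of fibroblast-like cells had an Ifi202b UMI, and 1.36%, 2.51%, 0.717% and 0.410% of basal-like cells. Unthinned, the progenitor-like shares with a UMI were 0.154% (6 of 3893 cells), 35%, 20.5% and 0%, high in the same 2 libraries, and the count of 0 in 3173 cells allows a share of up to 0.0945%. Endothelial-like cells held 0 and 34 UMIs at 8 weeks (0 and 19.7 CPM) and none at 9 weeks, where 8 and 7 cells were measured and 3 UMIs would be 72.6 and 52.6 CPM. The fibroblast markers in progenitor-like cells summed to 4.41 CPM in the control library at 9 weeks, beside 33.6 CPM of Ifi202b. In the Zeb1 MSKO library at 8 weeks, where Ifi202b was also high, they summed to 83.5 CPM, the most of any library. The part of fibroblast RNA in the Ifi202b values was not tested. The class test gave 4.82 ± 1.31 for progenitor-like over hormone-sensing cells (edgeR adjusted p = 0.00851), and it did not pass without the Zeb1 MSKO library at 8 weeks or the control library at 9 weeks (adjusted p = 0.0537 and 0.0632).

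Ifi202b (ENSMUSG00000026535) lies in mm10 on chromosome 1, bases 173962568 to 173982744, minus strand, among paralogs of the Ifi200 family. Some of these overlap one another, but none overlaps Ifi202b. Whether reads were shared with paralogs of like sequence was not tested. Without it the members summed to 1051, 944, 1485 and 1219 CPM in progenitor-like and 1964, 3241, 1797 and 2706 CPM in fibroblast-like cells.

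**Figure D5:**
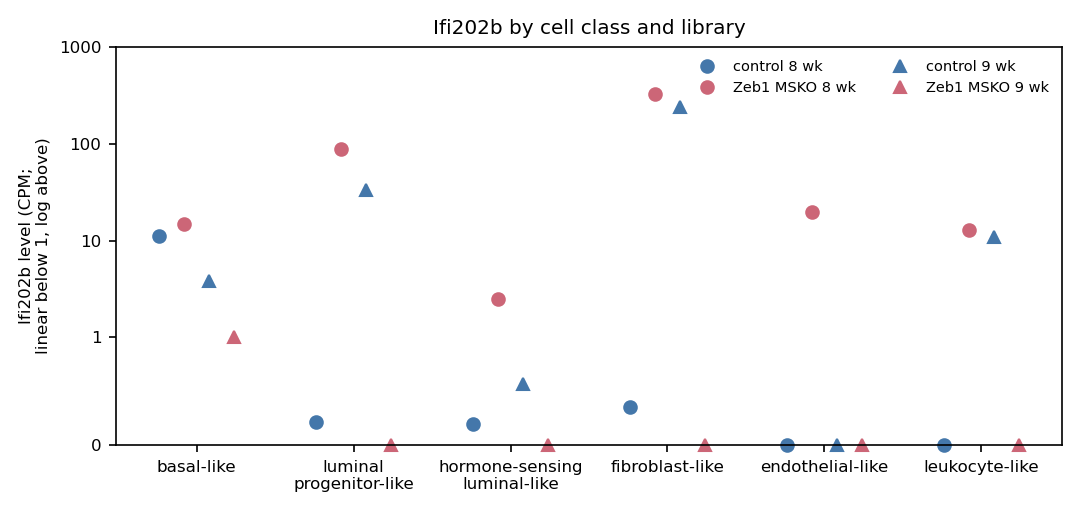
Level of Ifi202b (CPM, axis linear below 1 and logarithmic above) in each class and library, 1 point per library. Progenitor-like and fibroblast-like points are high in the Zeb1 MSKO library at 8 weeks and the control at 9 weeks, and at or near 0 in the other 2, while basal-like points lie between 1.02 and 14.8 CPM.

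The libraries of 9 weeks were compared with those of 8 weeks with genotype as a term. In basal-like cells Ifi202b was the only member called, lower at 9 weeks with a log2 difference of -2.69 ± 0.45 (edgeR adjusted p = 4.03e-04), where 3.17% of genes were called in either direction and 2.75% lower. Ifit1 (1.88 ± 0.56, edgeR adjusted p = 0.0612) and Xaf1 (1.19 ± 0.36, adjusted p = 0.0646) were next. No member passed in progenitor-like cells (0.313% of genes) or hormone-sensing cells (0.00763%), with edgeR. An unadjusted p under 0.05 was found for 12 of 35 and 4 of 34 members, beside 1403 of 12797 and 1388 of 13099 genes. DESeq2 called 2 members (Irf1 and Rtp4) in progenitor-like cells, where it called 317 of 12797 genes. There 32 of 35 members were higher at 9 weeks, with a median log2 difference of 0.60 against 0.02 over all genes. Rtp4 was higher by 1.11 ± 0.24 (edgeR adjusted p = 0.144) and Isg15 by 1.01 ± 0.26 (adjusted p = 0.209), while Irf1 was at -1.51 ± 0.28 (adjusted p = 0.10). Basal-like and hormone-sensing cells had 28 of 34 members higher at 9 weeks, with medians of 0.34 and 0.19 against 0.02 and 0.01 over all genes. In hormone-sensing cells Bst2 was at 0.82 ± 0.18 (edgeR adjusted p = 0.287).

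Cells with many transcripts of the 11 effectors were rare in the epithelium and common in endothelial-like cells. With each cell thinned to 2000 UMIs, cells with at least 5 effector UMIs were 20 of 3893, 1 of 1633, 18 of 2628 and 13 of 3173 progenitor-like cells, that is 0.514% (Wilson 95% interval 0.33 to 0.792), 0.0612% (0.0108 to 0.346), 0.685% (0.434 to 1.08) and 0.410% (0.240 to 0.70). The Zeb1 MSKO library at 8 weeks was the low one, and its interval overlapped those of the control at 8 weeks and of the Zeb1 MSKO library at 9 weeks. Basal-like shares were 0.113%, 0.0201%, 0.191% and 0.451%, highest in the Zeb1 MSKO library at 9 weeks with 11 of 2440 cells, and hormone-sensing shares 0.117%, 0%, 0.0851% and 0.0627% (0 of 1132 cells allows up to 0.338% by the Wilson interval). Means over the 4 libraries were 0.194% ± 0.185, 0.417% ± 0.263 and 0.0663% ± 0.0496 in basal-like, progenitor-like and hormone-sensing cells (SD, n = 4).

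Endothelial-like shares were 33.8% and 33.7% at 8 weeks (114 of 337 and 121 of 359 cells) and 37.5% and 57.1% at 9 weeks, on 8 and 7 cells. In these cells at 8 weeks Bst2 made up 54.1% and 64.0% of the effector UMIs and Isg15 31.1% and 25%, while Ifit1 was seen in 16 of the 114 and 10 of the 121 cells. Fibroblast-like cells reached 5.44% (21 of 386, interval 3.59 to 8.17) in the control and 18.3% (95 of 519, interval 15.2 to 21.9) in the Zeb1 MSKO library at 8 weeks, without overlap of the intervals, and 0 of 25 and 2 of 30 cells at 9 weeks. Each interval covers counting error within 1 library. In the same libraries fibroblast-like Ifit3 measured 16.3, 169, 5.01 and 28.8 CPM (46, 621, 1 and 7 UMIs), Ifit1 44.7, 124, 10.0 and 90.6 CPM and Isg15 143, 374, 85.1 and 189 CPM. All 3 were higher in the Zeb1 MSKO library at each age, on few cells at 9 weeks, while Usp18 measured 32.7, 59.4, 30.0 and 20.6 CPM. For Ifit3 and Ifit1 the control value at 9 weeks lay under the 15.0 CPM of 3 UMIs. No naming rule chose these 3 of the 11 effectors. In the same cells the 10 basal markers summed to 132, 430, 125 and 177 CPM and the dissociation-response genes to 8258, 12085, 12443 and 9069 CPM, and their part in these values was not tested. No test across genes was run in this class. Unthinned, the progenitor-like shares were 7.73%, 3.00%, 14.7% and 9.61% and the hormone-sensing shares 9.46%, 11.0%, 31.2% and 37.0%, so that hormone-sensing cells, the deepest class, then came above progenitor-like cells in every library.

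Of 92 other genes of the pathway on a fixed list, 90 were found in the gene table. Ifngr1, the binding chain of the interferon gamma receptor, measured 49.7, 52.6, 46.4 and 55.2 CPM in basal-like, 127, 118, 51.7 and 85.2 CPM in progenitor-like and 22.1, 21.1, 21.1 and 18.8 CPM in hormone-sensing cells. Hormone-sensing cells were the lowest, and the log2 excess was 2.12 ± 0.19 for progenitor-like (edgeR adjusted p = 4.2e-06) and 1.25 ± 0.19 for basal-like cells (adjusted p = 1.1e-04). Ifngr2, its signalling chain, was higher in progenitor-like than in hormone-sensing cells by 0.68 ± 0.17 (edgeR adjusted p = 0.00568).

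The chains of the type I receptor differed less. Ifnar1 passed in no class comparison, with log2 differences of 0.18 ± 0.15, -0.16 ± 0.15 and -0.34 ± 0.15 for progenitor-like minus basal-like, progenitor-like minus hormone-sensing and basal-like minus hormone-sensing cells. Ifnar2 was higher in progenitor-like than in hormone-sensing cells by 0.63 ± 0.14 (edgeR adjusted p = 0.00271). Of the kinases, Jak1 was lower in progenitor-like than in basal-like cells (-0.50 ± 0.12, adjusted p = 0.00546), and Tyk2 higher by 0.88 ± 0.18 (edgeR adjusted p = 0.00179). Socs1 and Socs3, inhibitors of the kinases, were both lower in progenitor-like than in basal-like cells, with log2 differences of -3.37 ± 0.27 and -2.37 ± 0.35 (edgeR adjusted p = 1.54e-06 and 1.64e-04). In all, 40 of the 73 list genes tested passed for progenitor-like against basal-like cells (25 higher, 15 lower), 47 against hormone-sensing cells (27 higher, 20 lower) and 43 for basal-like against hormone-sensing cells (18 higher, 25 lower), that is 54.8%, 64.4% and 58.9% beside the backgrounds of 58.0%, 58.0% and 71.1%. For genotype, none of 67, 72 and 72 tested genes passed in basal-like, progenitor-like and hormone-sensing cells (edgeR).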

How the data were processed

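The authors deposited 1 matrix of raw UMI counts for the 4 libraries. The submitters' processing notes name Cell Ranger 2.1.0 and mm10. The sources used here do not give whether depth was equalised across libraries.

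The members and gene lists were chosen with earlier results of these data known. Barcodes with fewer than 500 genes or over 10% mitochondrial counts (414) were removed. A cell joined a class when its mean log2(1 + UMIs per 10000) over the class's markers passed a limit set after seeing the scores (0.6 to 1.5 over 9 marker lists). For leukocyte-like cells the mean was taken over the 8 highest of the markers in each cell. The 2355 cells (6.38%) passing more than 1 limit were left out. This stands in for doublet calling, and doublets within a class remain. In all 33637 cells (91.2%) fell in the 6 classes.

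Counts were added up within each class and library and tested with edgeR 4.0.16 (quasi-likelihood, TMM scaling, default filter on low counts, Benjamini-Hochberg at 0.05), with n = 2 libraries per genotype. DESeq2 1.42.0 and other settings were alternatives. The CPM values printed use the class total without TMM scaling. Standard errors are the log2 difference over the square root of F. Ratios within an age carry a prior count of 2. Named genes are members past the threshold. Where fewer than 6 passed, they are also the 6 of largest change whose mean reached 2 CPM and whose direction was 1 at both ages. Ifi202b, Stat2 and the receptor chain genes were always named. Intervals and floors of 3 UMIs cover counting error only. Gene coordinates come from GENCODE vM21 (27645 of 27998 genes matched), promoters from RefSeq.

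Per the labels, replicate numbers coincide with age, and no shared litter or day is stated. Scripts were tested on simulated data. 1 gene of the pathway list is not reported here.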

Additional observations from a re-analysis of the deposited data

Results flagged for a closer look

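Ifi202b in progenitor-like cells went in opposite directions at the 2 ages. At 8 weeks its level in the Zeb1 MSKO library was 413 times that of the control (1275 against 8 UMIs). At 9 weeks the control level was 317 times a floor of 3 UMIs in the Zeb1 MSKO library (830 against 0 UMIs). The lower end of the exact 95% interval was 258. Each genotype thus holds 1 high and 1 low library. Whether the genotype difference changed with age was not tested, because each age has 1 library per genotype.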

How the results depend on the processing

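With n = 2 libraries per genotype, a simulated 2-fold change was called in 6 of 100 genes and a 4-fold change in 63 of 100 in the progenitor-like genotype comparison, and in 75 and 98 of 100 between progenitor-like and basal-like cells. Each simulation changed 200 genes and held no library effects. The real comparison of these classes called 58.0% of genes, so the simulated class rates do not give the share of true changes it would call. The counts of members called between classes ran from 24 to 27, 20 to 27 and 21 to 23 on leaving out 1 library (main 25, 25 and 24), and no called member changed direction under any of the 10 alternatives run for each. Without a filter on low counts, age called 3 members in basal-like cells (beside 588 of 18841 genes) and 4 in progenitor-like cells (651 of 18360). Genotype then called 2 members in progenitor-like cells, beside 85 of 18360 genes. DESeq2 called 2 members for age in progenitor-like cells, beside 317 of 12797 genes. Mean shares of cells with at least 3 effector UMIs were 0.649%, 1.74% and 0.902% in basal-like, progenitor-like and hormone-sensing cells. At least 8 UMIs gave 0.137% in progenitor-like cells, and thinning to 1000 UMIs gave 0.0106% in hormone-sensing cells. Over all genes, genotype called 40, 85 and 0 without the filter and 2, 7 and 29 with DESeq2 in the 3 classes, and age called 588, 651 and 171 without the filter and 295, 317 and 309 with DESeq2, against 408, 40 and 1. The interaction called 9 genes without the filter, 1 with doublets kept, 80 without the Zeb1 MSKO library at 9 weeks and 9 without the one at 8 weeks, against 0. Genotype in basal-like cells called 16 genes without the Zeb1 MSKO library at 9 weeks, against 0. Genotype changes that took both signs on leaving out 1 library ran from -0.055 to 0.73 for Gbp3, -0.21 to 0.63 for Gbp2 and -0.46 to 0.96 for Xaf1 in basal-like cells, and from -1.36 to 0.054 for Oasl2, -1.30 to 0.070 for Irf7 and -1.42 to 0.48 for Irf1 in progenitor-like cells. The cause of each was not tested. No library was left out of the age comparison, where no residual degree of freedom would be left.

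With age, the replicate number, as a replicate block, 0 members were called for genotype in each class, and 6, 0 and 1 genes over all. The 9 minus 8 week differences of the 2 genotypes correlated across genes at 0.356, 0.276 and 0.246 in basal-like, progenitor-like and hormone-sensing cells. The Zeb1 MSKO minus control differences at 8 and at 9 weeks correlated at -0.326, -0.198 and -0.0175 in the same order of classes. Genes are not independent replicates.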

Other observations

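Neighbours of Ifi202b in the Ifi200 cluster on chromosome 1 were looked at after its values were seen. In progenitor-like cells Ifi203 measured 0.241, 34.5, 29.1 and 0 CPM in the same order of libraries, and Mndal 0.134, 10.6, 5.95 and 0.0705 CPM. The Mndal level was 79.3 times higher in the Zeb1 MSKO library at 8 weeks (exact 95% interval 33.3 to 248) and 84.3 times higher in the control at 9 weeks (interval 22.9 to 703). Mnda measured 0.241, 4.23, 1.70 and 0.0352 CPM there, and Ifi204 0.615, 4.09, 2.35 and 0.0352 CPM. Fibroblast-like cells held Ifi203 at 154, 200, 125 and 157 CPM and Ifi204 at 298, 287, 285 and 255 CPM, so that these neighbours were present in all 4 libraries of that class while Ifi202b was not. Ifi203 and Mndal overlap in mm10 (bases 173920407 to 173942672 and 173849126 to 173942491), and Mnda (bases 173896345 to 173913046) lies within Mndal. The counts of Ifi203, Mndal and Mnda are therefore not separate measurements.

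Iigp1, a GTPase induced by interferon gamma, was highest in hormone-sensing cells within the epithelium. It measured 156, 259, 210 and 141 CPM there against 6.55, 7.90, 16.9 and 9.41 CPM in progenitor-like and 8.05, 7.46, 8.19 and 8.97 CPM in basal-like cells. The log2 differences from hormone-sensing cells were -4.28 ± 0.26 and -4.56 ± 0.27 (edgeR adjusted p = 2.32e-07 and 1.03e-07). Ifnl3, which encodes a type III interferon, was also found there, with 83, 9, 15 and 22 UMIs in hormone-sensing, 2, 0, 0 and 0 in progenitor-like and 0 in all basal-like sums. Ifnl3 in progenitor-like against hormone-sensing cells gave an edgeR adjusted p of 1.21e-04. Both genes were singled out after their values were seen.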
